A study of Mus musculus with 2 samples.

Results

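Car4 capillary cells were taken from the blood endothelial cells (BECs) of 2 mouse tumor models by the UMIs (counted RNA molecules) of 20 genes. A barcode entered the BEC gate with a sum of at least 2 UMIs of Pecam1, Cdh5 and Egfl7 and at most 1 of Ptprc, Col1a2, Epcam, Mmrn1 and Notch3. Within the gate, a Car4 capillary cell carried at least 3 UMIs of Car4, Cd300lg and Btnl9 together. It carried at most 1 UMI of each of 4 excluding sets, which were the tip cell genes Apln and Angpt2, the artery genes Gja5, Sema3g and Fbln5, the venule genes Ackr1 and Selp, and the proliferation genes Top2a and Mki67. In the KPC library 848 of 7204 gate cells met the rule, a share of 11.8% (exact Clopper-Pearson 95% interval 11.04 to 12.5), out of 10236 deposited barcodes. In the PyMT library 1295 of 10352 gate cells did, or 12.5% (11.9 to 13.2), out of 12464 barcodes. The rule used the levels of these genes in the same cells, so their values describe the choice and are not results.

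Both tumors were grown in the matching organ of female wild-type C57BL6 mice aged 6 weeks, from 100000 implanted cells, and were digested 10 days later. KPC is a pancreatic ductal adenocarcinoma line from a genetic mouse model driven by p48-Cre, and PyMT is a mammary line from mice in which the MMTV promoter drives the polyoma middle T antigen. BECs were sorted after depletion of leukocytes, epithelial cells, red cells and podoplanin-bearing cells, and 1 library was made per tumor model, with the number of mice in it not given in the sources used here. The KPC library held 44441942 UMIs and the PyMT library 55547926. With 1 library per model there is no replicate check. Intervals below cover counting error only, no p-value is given, and tumor, organ and library cannot be told apart. A sum of UMIs over a class of cells also cannot separate fewer cells with a gene from less RNA in each.

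Capillary endothelial cells line the narrowest vessels, where solutes, gases and lipids cross between blood and tissue. Car4 encodes a carbonic anhydrase anchored on the luminal surface, which interconverts carbon dioxide and bicarbonate, Cd300lg encodes nepmucin, a sialomucin of the endothelial surface, and Btnl9 a butyrophilin-like membrane protein. All 3 genes lie on mouse chromosome 11 of GRCm38, Car4 at chr11:84957786-84966044, Cd300lg at chr11:102041509-102055620 and Btnl9 at chr11:49165585-49187159, by GENCODE. In tissues that use fatty acids, capillary cells hold lipoprotein lipase at their surface through Gpihbp1, take up fatty acids through Cd36 and carry them with Fabp4. Tip cells and proliferating cells belong to growing vessels, and the rule was written to keep them out.

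Promoters are shown for 3 genes that were higher in Car4 capillary cells than in the other gate cells of both libraries. Scgb3a1 encodes a small secreted protein, Slc28a2 a sodium-coupled nucleoside transporter, and Cd36 the fatty acid receptor. These 3 were picked because the RefSeq table lists 1 start for each and the 250 bases before it overlap no GENCODE exon. The sequences are from RefSeq on GRCm38.p6, read 5′ to 3′ on the strand of the gene, with capitals for AGGTCA or its reverse complement TGACCT, the half-site bound by nuclear receptors, including those that govern lipid genes. The Scgb3a1 stretch is chr11:49663345-49663594 on the plus strand, and that of Slc28a2 is chr2:122426185-122426434 on the plus strand, both just before the gene. That of Cd36 is chr5:17835897-17836146 on the minus strand, in an intron of the longer GENCODE gene model.
Scgb3a1: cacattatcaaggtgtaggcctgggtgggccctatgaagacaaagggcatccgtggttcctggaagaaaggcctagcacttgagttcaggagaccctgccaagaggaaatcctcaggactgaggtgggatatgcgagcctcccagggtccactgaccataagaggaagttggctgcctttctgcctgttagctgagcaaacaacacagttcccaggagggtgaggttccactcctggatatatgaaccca
Slc28a2: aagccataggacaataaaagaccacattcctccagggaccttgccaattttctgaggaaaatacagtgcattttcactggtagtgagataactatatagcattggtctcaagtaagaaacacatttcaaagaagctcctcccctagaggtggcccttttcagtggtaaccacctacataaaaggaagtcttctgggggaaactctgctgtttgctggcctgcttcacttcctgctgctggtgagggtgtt
Cd36: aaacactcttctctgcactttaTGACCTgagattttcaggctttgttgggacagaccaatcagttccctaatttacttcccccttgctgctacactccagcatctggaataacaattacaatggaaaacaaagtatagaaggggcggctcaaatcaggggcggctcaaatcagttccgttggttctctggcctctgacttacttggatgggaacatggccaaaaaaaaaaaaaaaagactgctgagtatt
The half-site occurred 1 time in the Cd36 stretch and 0 times in the other 2. Of 32851 RefSeq promoters of the same length, 14.0% held it.

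The makeup of the marker sum describes which cells the rule chose in each library and is not a result. In KPC, Car4 gave 40.0% of the 3670 marker UMIs of the Car4 capillary cells, Cd300lg 37.0% and Btnl9 22.997%. In PyMT, Car4 gave 86.7% of 7934 marker UMIs, Cd300lg 9.30% and Btnl9 3.96%. Car4 was the only marker seen in 49 KPC cells (5.78%) and in 701 PyMT cells (54.1%). All 3 markers were seen in 220 KPC cells (25.9%) and in 76 PyMT cells (5.87%). In the other gate cells, at least 1 Car4 UMI was found in 10.998% of KPC and 39.0% of PyMT cells, Cd300lg in 28.5% and 13.0%, and Btnl9 in 11.2% and 10.5%. As a check on free RNA, none of 433 KPC barcodes without BEC genes and with other-cell genes reached a marker sum of 3, which allows a share of up to 0.693% (median 4629 UMIs). For PyMT only 24 such barcodes existed, also with 0 at that sum, and the limit was 12.5% (median 2842 UMIs).

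**Figure D1:**
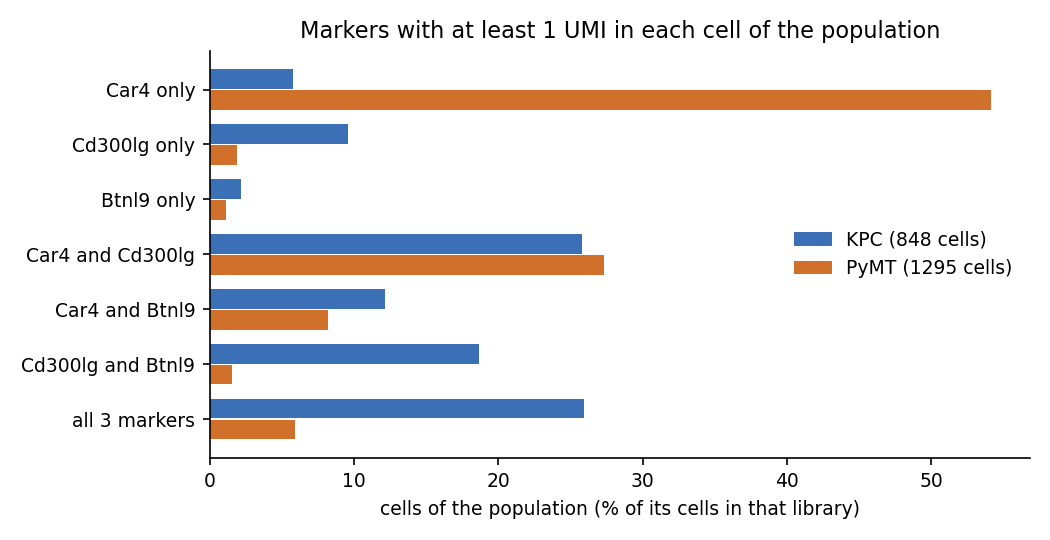
Share of the Car4 capillary cells of each library (x axis, percent) by which of Car4, Cd300lg and Btnl9 had at least 1 UMI (y axis), with blue bars for KPC (848 cells) and orange bars for PyMT (1295 cells). Cells with Car4 alone made up 5.78% in KPC and 54.1% in PyMT.

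Depth differed in KPC. The KPC Car4 capillary cells had a median of 1787.5 UMIs and 1072.5 genes, against 3113 UMIs and 1516.5 genes in the other gate cells, and 495 of the 848 lay under 2000 UMIs. In cells thinned to 2000 UMIs the medians were 1144 and 1113 genes. In PyMT the medians were 4044 UMIs in Car4 capillary cells and 3999 in the others, and 1058.5 and 1062 genes after thinning. The libraries shared 170 barcodes, 2 of them of Car4 capillary cells in both. The exclusions acted unequally, since 242 of 1090 KPC gate cells with a marker sum of at least 3 failed one (22.2%), against 1489 of 2784 in PyMT (53.5%).

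Against the other gate cells, the KPC population stood apart much more than the PyMT population. Levels were given as CPM, the UMIs of a gene summed over a class and scaled to a common total of UMIs. A gene was counted as higher or lower from a 2-fold ratio on, among genes with at least 10 expected UMIs in the Car4 capillary cells. In KPC, 304 of 9531 genes were at least 2-fold higher (3.19%) and 613 at least 2-fold lower (6.43%). With the mean of each cell's CPM in place of summed UMIs, these counts were 161 and 681. In PyMT, 25 of 10747 genes were at least 2-fold higher (0.233%) and 290 lower (2.7%). The whole interval lay past 2-fold for 136 of the 304 higher and 220 of the 613 lower KPC genes. In PyMT this held for 7 of the 25 higher and 68 of the 290 lower genes. Of 9381 genes tested in both, 8 were at least 2-fold higher in both libraries and 129 lower in both. The 8 genes were 66.7% of the higher PyMT genes and 2.84% of the higher KPC genes in that common set. The 282 genes that were higher in KPC had a median log2 ratio of 0.19 in PyMT, where 209 of them lay above 0.

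The 8 genes were Thrsp, Fmo2, Scgb3a1, Slc28a2, Sult1a1, Sybu, Apoe and Lyz2. Thrsp, a nuclear protein tied to fat synthesis, stood at 226 CPM in KPC Car4 capillary cells and 52.3 CPM in the other gate cells (log2 ratio 2.11, 95% interval 1.96 to 2.26). In PyMT it stood at 10.1 and 3.46 CPM (log2 ratio 1.54, 1.09 to 1.98). Thus the ratio was shared while the KPC level was the higher one. Scgb3a1 was at 151 and 49.4 CPM in KPC (log2 ratio 1.62, 1.43 to 1.80) and at 12.1 and 3.51 CPM in PyMT (1.79, 1.36 to 2.20). Slc28a2 rested on few molecules, 35 UMIs in KPC (log2 ratio 2.01, 1.42 to 2.57) and 23 in PyMT (1.10, 0.36 to 1.79). Fmo2, a flavin monooxygenase of drug metabolism, had log2 ratios of 1.90 in KPC and 1.27 in PyMT (0.67 to 1.85). Sult1a1, a phenol sulfotransferase, had 1.27 and 1.10, and Sybu, a protein that links cargo to kinesin motors, 1.45 and 1.19. Apoe, the lipid-carrying apolipoprotein, was at 515 and 241 CPM in KPC and at 107 and 48.2 CPM in PyMT (log2 ratios 1.09 and 1.15). The intervals reached below 2-fold in PyMT for Slc28a2, Fmo2, Sult1a1 (0.81 to 1.39) and Sybu (0.78 to 1.59), and in KPC for Sult1a1 (0.94 to 1.58) and, narrowly, Apoe (0.999). The PyMT ratios of these 7 genes depended on Cd300lg as a marker. With Car4 and Btnl9 alone in the sum all 7 were under 2-fold in PyMT, with log2 ratios of 0.80 for Thrsp, 0.68 for Scgb3a1, 0.55 for Slc28a2, 0.16 for Fmo2, 0.51 for Sult1a1, 0.92 for Sybu and 0.41 for Apoe. Sybu in PyMT was lower still, at 0.67, under another alternative. In KPC, Apoe was at 0.53 over unmarked cells, which are gate cells that pass the exclusions and lack all 3 markers, and Sult1a1 at 0.93 without Car4 in the sum.

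Lyz2, a lysozyme of myeloid cells, was the exception among the 8, because a few cells carried it. Of its 101 UMIs in KPC Car4 capillary cells, 85 lay in 1 cell, and without that cell its log2 ratio went from 1.59 to -1.06. In PyMT, 92 of 95 UMIs lay in 3 cells, and without the richest cell the log2 ratio went from 2.40 to 1.33. For the other 7 genes, the log2 ratio without the cell richest in the gene was between 1.08 and 2.10 in KPC and between 1.03 and 1.59 in PyMT.

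The next 4 genes by the weaker of the 2 libraries were Lims2, Cyp4b1, Lrrc3b and Cldn15. Cyp4b1, a cytochrome P450 that hydroxylates fatty acids, was at 83.5 and 31.7 CPM in KPC (log2 ratio 1.40) and at 19.8 and 10.3 CPM in PyMT (0.94). Lims2, an adaptor of focal adhesions, had log2 ratios of 1.61 and 0.99, and Cldn15, a claudin that forms cation pores in tight junctions, 1.11 and 0.91. Lrrc3b, a leucine-rich repeat membrane protein, had 1.17 and 0.91.

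At the other end, the 12 genes lowest in both libraries were Cytl1, Gap43, Nusap1, Mgp, Ptx3, Mmp2, Hist1h2ap, Prc1, Hist1h1b, Ube2c, Ccnf and Aurkb. Cytl1, a small secreted protein, had 1 UMI in the Car4 capillary cells of each library, against 19.4 CPM in the other KPC gate cells and 3.46 CPM in the other PyMT gate cells (log2 ratios -5.32, -10.63 to -2.84, and -4.36, -9.68 to -1.86). Mgp, a matrix inhibitor of calcification, was at 16.0 and 116 CPM in KPC and at 20.3 and 110 CPM in PyMT (log2 ratios -2.86 and -2.44). Ptx3, a soluble pattern receptor, had log2 ratios of -2.79 and -2.43, and Gap43, a growth-cone protein of neurons, -3.05 and -3.54. Mmp2, a matrix gelatinase, had -2.65 and -2.28. In KPC, Ptx3, Gap43 and Mmp2 had 2 UMIs each in the Car4 capillary cells. The KPC intervals of Ptx3 (-5.85 to -0.92) and Mmp2 (-5.71 to -0.78) reached inside 2-fold, and that of Gap43 was -6.10 to -1.18. Nusap1, Prc1, Ube2c, Ccnf and Aurkb act in mitosis, and Hist1h1b and Hist1h2ap are histone genes used in S phase. Because the rule removes cells with Top2a or Mki67, the low level of such genes against the whole gate follows in part from the choice. In PyMT, the log2 ratio over unmarked cells lay above 0 for Nusap1 (0.36), Hist1h2ap (0.78), Prc1 (0.45), Hist1h1b (0.85), Ube2c (0.42) and Aurkb (0.63), and that of Ccnf was at 0.14 in barcodes thinned before the rule. Ube2c, a ubiquitin-conjugating enzyme of mitotic exit, was at 14.6 and 185 CPM in KPC and at 45.5 and 191 CPM in PyMT. Aurkb, a kinase of chromosome segregation, had log2 ratios of -2.86 and -2.03. Ccnf had 0 UMIs in KPC, which against a floor of 3 UMIs puts its log2 ratio at -2.55 or lower.

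**Figure D2:**
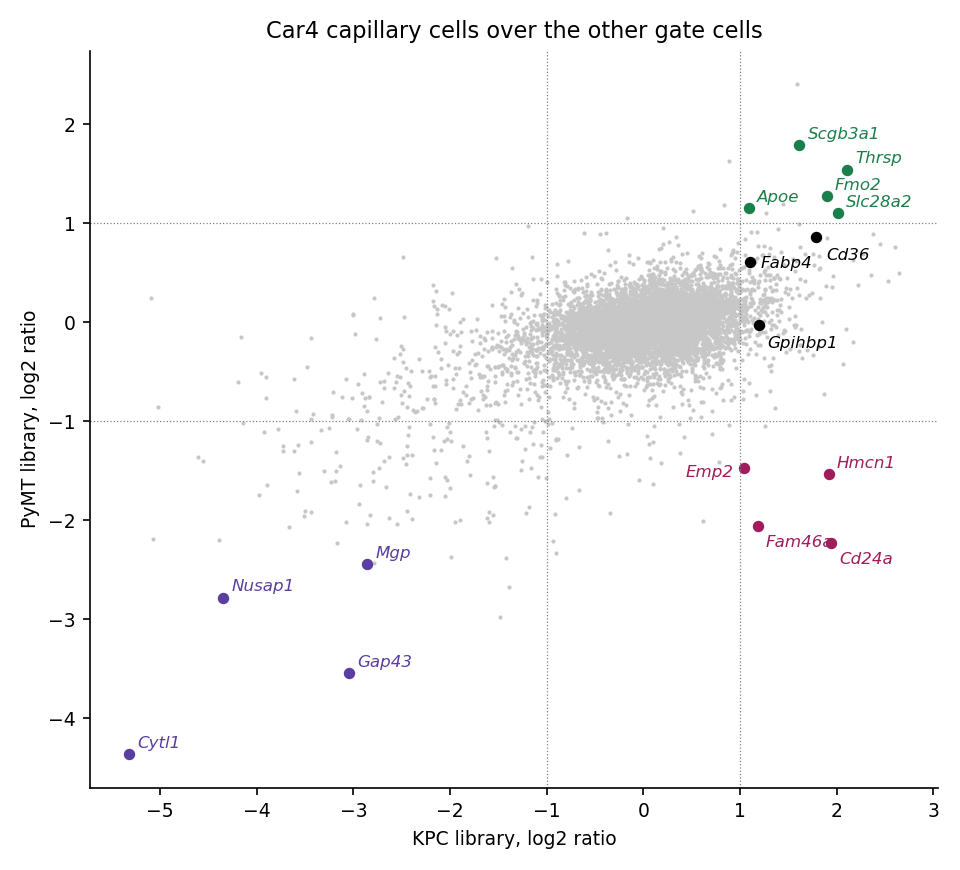
Log2 ratio of the level in Car4 capillary cells over the other gate cells, in KPC (x axis) and PyMT (y axis), for the 9381 genes tested in both, with dotted lines at 2-fold. Thrsp, Fmo2, Scgb3a1, Slc28a2 and Apoe (green) lie past 2-fold in both, Cd24a, Hmcn1, Fam46a and Emp2 (magenta) lie past 2-fold in opposite directions, and most of the spread is along the KPC axis.

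Capillary genes outside the rule were high in KPC. Of the 20 genes of a capillary identity list, 17 were tested in KPC, 9 were at least 2-fold higher and 1 was lower, with a median log2 ratio of 1.10 where all genes tested had 0.02. Cd36 was at 563 CPM in KPC Car4 capillary cells and 163 CPM in the other gate cells (log2 ratio 1.79). Tcf15, a transcription factor of fatty acid transporting endothelium, was at 205 and 60.6 CPM (1.76). Fabp4 was at 10069 and 4684 CPM (1.10), Gpihbp1 at 1582 and 692 CPM (1.19), and Ly6c1, a surface protein of microvessels, at 3173 and 1164 CPM (1.45). Podxl, a sialomucin of the luminal face, had a log2 ratio of 1.41, as did Sgk1, a kinase that regulates ion transport. Rgcc, a regulator of the cell cycle, was at 1627 and 815 CPM. The lower gene was Meox2, a homeobox factor of heart and muscle capillaries, at 2.43 and 10.7 CPM (-2.14).

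In PyMT, 19 of the 20 genes were tested, 2 were at least 2-fold higher and 0 lower, and the median was 0.32 against -0.02 for all genes tested. The 2 higher genes were Aqp7, a channel for water and glycerol (8.74 and 1.78 CPM, log2 ratio 2.30), and Timp4, an inhibitor of matrix proteases (4.87 and 1.82 CPM, 1.42). Cd36 was at 357 and 196 CPM (0.86), Fabp4 at 2970.1 and 1941 CPM (0.61) and Tcf15 at 42.9 and 26.5 CPM (0.69). Gpihbp1 did not separate the classes, at 1152 CPM in Car4 capillary cells and 1178 CPM in the others. Rgcc was at 666 and 607 CPM. So the label of a capillary population held in KPC on markers outside the rule, while in PyMT the same markers set it apart by less than 2-fold, with the exception of Aqp7 and Timp4.

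A second comparison used cells that meet the same exclusions. Unmarked cells are gate cells that pass all 4 exclusions but have no UMI of Car4, Cd300lg or Btnl9. There were 1627 in KPC (median 2164 UMIs) and 2596 in PyMT (median 3141.5 UMIs). Over them, 264 of 9564 genes were at least 2-fold higher in KPC Car4 capillary cells (2.76%) and 509 lower (5.32%). In PyMT 131 of 10768 were higher (1.22%) and 317 lower (2.94%). The capillary identity list had a median log2 ratio of 1.15 in KPC, with 11 of 17 genes higher and 1 lower. In PyMT it had 0.48, with 4 of 19 higher and 0 lower.

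Genes of the cell cycle went against the word quiescent in PyMT. A list of 20 mitosis genes had a median log2 ratio over unmarked cells of -1.50 in KPC, where 13 of 18 tested genes were at least 2-fold lower and 0 higher. Their summed KPC level was 611 CPM against 724 CPM, of which the tubulin gene Tubb4b made up 411 CPM in the Car4 capillary cells. Among KPC cells of 2000 to 5000 UMIs only 9 mitosis genes could be tested, with 5 lower and 1 higher (median -1.16) and summed levels of 580.2 and 597 CPM. In PyMT the median was 0.25, with 0 of 20 higher and 0 lower. A list of 20 S phase genes had a median of -0.45 in KPC, with 3 of 19 lower and 0 higher. In PyMT the median was 0.71, with 4 of 20 higher and 0 lower. Their summed level was 840.0 CPM in PyMT Car4 capillary cells and 566 CPM in unmarked cells, against 585 and 731 CPM in KPC. Within the PyMT population they summed to 918 CPM in cells with Car4 alone and 751 CPM in cells with Cd300lg or Btnl9 (median log2 ratio -0.38 for the latter over the former, and -0.37 for mitosis genes). The 4 higher PyMT genes were Ung, which removes uracil from DNA (19.8 CPM in Car4 capillary and 8.48 CPM in unmarked cells), Cdc6, a licensing factor (11.4 and 4.86 CPM), Rrm2, a subunit of ribonucleotide reductase (41.3 and 19.7 CPM), and Mcm2, a subunit of the replicative helicase (37.3 and 18.2 CPM). In KPC, Rrm2 was lower, at 12.1 and 39.7 CPM. The PyMT S phase median was 0.63 among cells of 2000 to 5000 UMIs, and 0.69 without cells holding a lymphatic UMI. The KPC comparator was richer in epithelial markers, at 1854 CPM in unmarked and 440 CPM in Car4 capillary cells (7 of 7 lower). Without cells holding over 1 epithelial UMI the KPC medians were -1.33 for mitosis (14 of 18 lower, 0 higher) and -0.38 for S phase (1 of 18 lower, 0 higher), and the PyMT medians 0.25 and 0.74. Over the other gate cells, which include cells with Top2a or Mki67, the S phase medians were -1.18 in KPC (14 of 20 lower, 0 higher) and -0.23 in PyMT (0 lower, 0 higher), and the mitosis medians were -3.16 (19 of 20 lower) and -1.22 (12 of 20 lower). For this reason the population is called Car4 capillary cells here and not quiescent. The word capillary follows the markers of the rule. In PyMT, 54.1% of the cells had Car4 alone. Over the other PyMT gate cells, 2 of 19 capillary identity genes outside the rule were at least 2-fold higher and 0 lower.

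A list of 13 genes held cell cycle inhibitors and genes linked to quiescence. Over the other gate cells, 5 were at least 2-fold higher in KPC Car4 capillary cells and 1 was lower (median 0.59), while in PyMT 0 were higher and 0 lower (median -0.04). Over unmarked cells the KPC count was 3 higher and 0 lower (median 0.45) and the PyMT count 0 higher and 0 lower (median -0.03). Btg2, an antiproliferative gene, was at 968 and 372 CPM in KPC (log2 ratio 1.38) and at 162 and 139 CPM in PyMT (0.22). Cdkn1a, which encodes the inhibitor p21, was at 571 and 239 CPM in KPC (1.26) and at 113 and 120.3 CPM in PyMT (-0.09). Gas6, a ligand of TAM receptors, was at 214 and 71.8 CPM in KPC (1.57) and 11.1 and 11.5 CPM in PyMT (-0.05). Immediate early and heat shock genes, which respond to stress and to tissue digestion, did likewise, with 7 of 15 higher in KPC (median 0.87) and 0 of 14 in PyMT (median 0.10). Over unmarked cells the KPC count was 2 of 15 (median 0.70). Egr1, a factor of that class, was at 839 and 313 CPM in KPC and at 90.8 and 84.6 CPM in PyMT. The part of tissue digestion in these values was not tested.

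**Figure D3:**
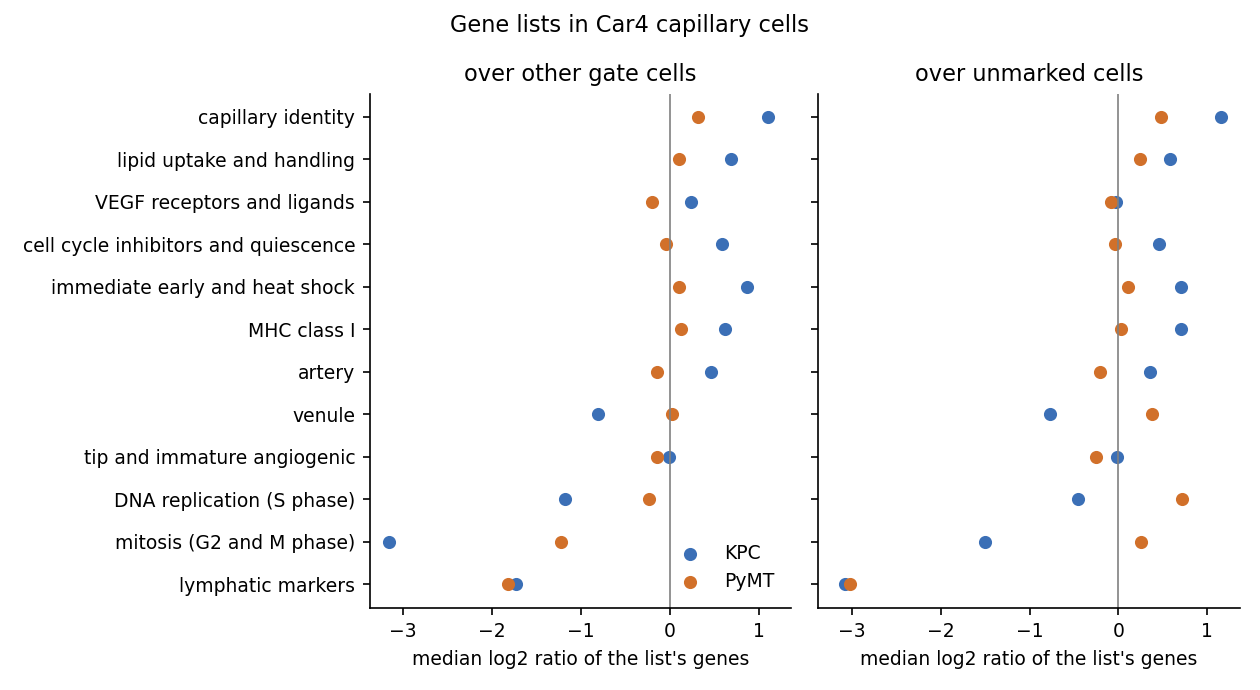
Median log2 ratio (x axis) of the tested genes of 12 lists (y axis) in Car4 capillary cells over the other gate cells (left panel) and over unmarked cells (right panel), with blue points for KPC and orange points for PyMT. Over unmarked cells the S phase and mitosis medians lie below 0 in KPC (-0.45 and -1.50) and above 0 in PyMT (0.71 and 0.25).

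Along the marker sum the tumors took different courses. Gate cells that pass the exclusions were grouped by their UMIs of Car4, Cd300lg and Btnl9, with 599 KPC and 616 PyMT cells at a sum of 2, just outside the rule, and 373 and 408 at a sum of 3, just inside. In KPC, Gpihbp1 stood at 583 CPM at a sum of 0, 1195 at 2, 1425 at 3, 1616 at 4 to 5, 1875 at 6 to 9 and 2078 at 10 or more, where only 15 cells remained. Kdr, the main receptor of VEGF-A, went from 497 CPM at 0 through 955 at 2 and 976.5 at 3 to 1440.2 at 6 to 9. Both were higher at every step in KPC. In PyMT, Gpihbp1 was at 1384 CPM at a sum of 0, 1381 at 2, 1344 at 3, 1096 at 6 to 9 and 778 at 10 or more (187 cells), so it was lowest where the marker sum was highest. Fabp4 in PyMT was at 1971 CPM at 0, 3727 at 3, 3553 at 4 to 5, 2323 at 6 to 9 and 1656 at 10 or more. In KPC it went from 4466 CPM at 0 to 9579.7 at 3 and 11051.5 at 6 to 9. PyMT S phase genes summed to 566 CPM at 0, 748 at 3 and 969 at 10 or more. Depth also differed along the sum. In PyMT the median was 3141.5 UMIs at 0, 3561.5 at 3 and 5161 at 10 or more, against 2164, 1738 and 1543 in KPC.

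**Figure D4:**
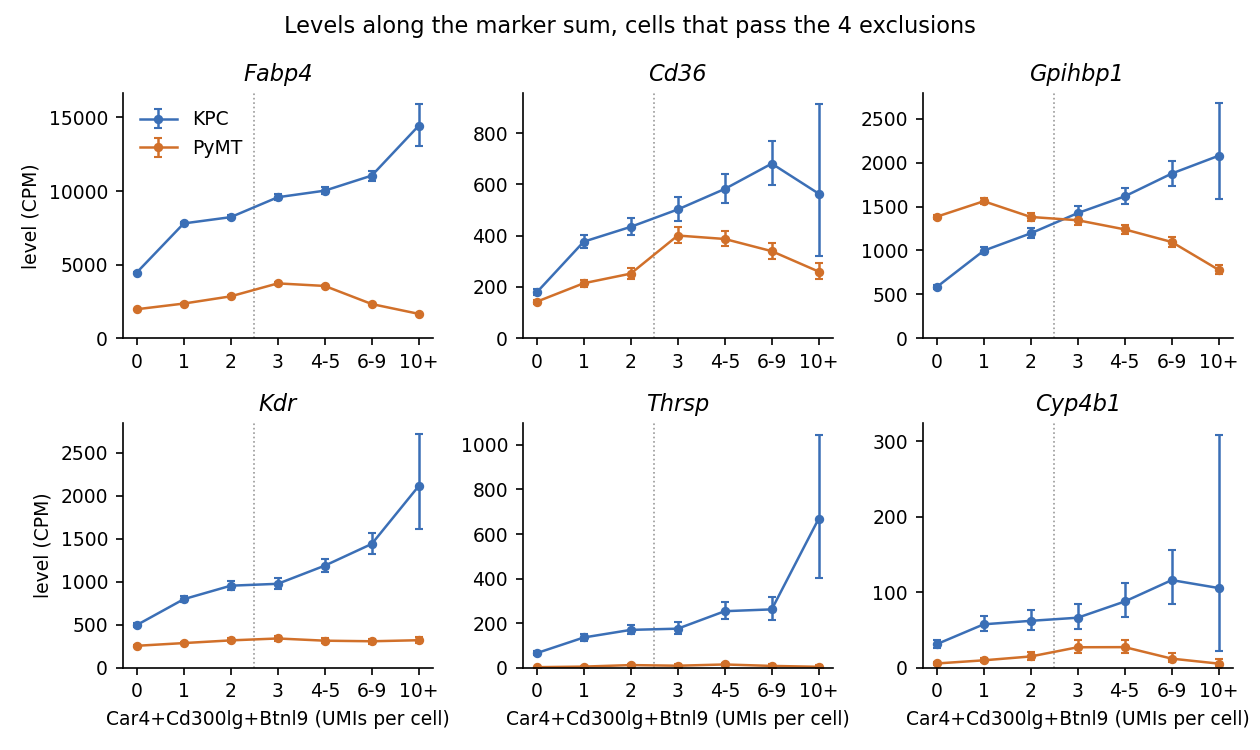
Level in CPM (y axis, from 0) of Fabp4, Cd36, Gpihbp1, Kdr, Thrsp and Cyp4b1 against the Car4, Cd300lg and Btnl9 UMIs of a cell (x axis, 7 groups), for gate cells that pass the 4 exclusions, with exact Poisson 95% intervals. The dotted line marks the threshold of 3. KPC levels (blue) at a sum of 6 to 9 lie above those at 0 for all 6 genes, while in PyMT (orange) all 6 are lower at 10 or more than at 3, Kdr only slightly (321 and 341 CPM).

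In PyMT these levels went with the marker a cell carried. The 594 PyMT cells with Cd300lg or Btnl9 and the 701 with Car4 alone had nearly the same depth, with medians of 4040.5 and 4044 UMIs. Of 9528 genes, 195 were at least 2-fold higher in the cells with Cd300lg or Btnl9 (2.05%) and 73 lower (0.766%), and 8 of 19 capillary identity genes were among the higher ones and 0 among the lower (median 0.64, all genes 0.03). The contrast was not confined to capillary genes. Artery genes had 4 of 17 higher and 0 lower (median 0.34), with Gja4 at 133 and 58.9 CPM. Pericyte markers had 1 of 4 higher and 0 lower (median 0.66), with Rgs5 at 15.9 and 4.10 CPM. Fabp4 was at 4578 CPM in cells with Cd300lg or Btnl9, 1564 CPM in cells with Car4 alone and 1971 CPM in unmarked cells. Cd36 was at 521, 213 and 143 CPM in the same order, Tcf15 at 71.3, 18.0 and 26.7 CPM, and Apoe at 183, 41.3 and 42.6 CPM. Cells with Car4 alone were thus at or below the unmarked level for Fabp4, Tcf15 and Apoe. Aqp7 had 50 UMIs in cells with Cd300lg or Btnl9 and 2 in cells with Car4 alone (18.0 and 0.63 CPM, log2 ratio 4.84, 2.91 to 7.92). Lpl, the lipase that Gpihbp1 holds, had 80 and 9 UMIs (28.8 and 2.84 CPM, 3.35, 2.35 to 4.53). Cxcl12, a chemokine of capillary and arterial cells, was at 133 and 25.8 CPM (2.36). Of the 8 shared genes, Scgb3a1 was at 22.3 and 3.15 CPM and Thrsp at 18.4 and 2.84 CPM. Lrg1, a glycoprotein high in venules, did not follow the pattern, at 1189 and 1167 CPM against 626 CPM in unmarked cells.

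Adipocyte markers were higher in the same cells and are given here because adipocytes also express Fabp4, Cd36, Lpl and Aqp7. The 6 adipocyte markers summed to 24.5 CPM in PyMT cells with Cd300lg or Btnl9, 0.945 CPM in cells with Car4 alone and 3.73 CPM in unmarked cells. The most abundant was Cfd, with 42 UMIs of the 68 in cells with Cd300lg or Btnl9, then Car3 with 15, Retn with 7, Adipoq with 3, Plin4 with 1 and Plin1 with 0. Of the 33 such UMIs in unmarked cells, 25 lay in 1 cell. Only 27 of the 594 cells held any of these UMIs. Without those 27 cells, and without the 3 such cells with Car4 alone, Fabp4 was at 4061 and 1542 CPM, Cd36 at 459 and 212 CPM, Lpl at 25.3 and 2.84 CPM and Aqp7 at 16.4 and 0.316 CPM. Markers of other cells also differed at 2-fold between the cells with Cd300lg or Btnl9 and those with Car4 alone. Of lymphatic markers 1 of 4 was higher and 0 lower, and of red cell genes 2 of 4 were higher and 1 lower. Fibroblast markers had 2 of 3 lower and epithelial markers 2 of 2.

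**Figure D5:**
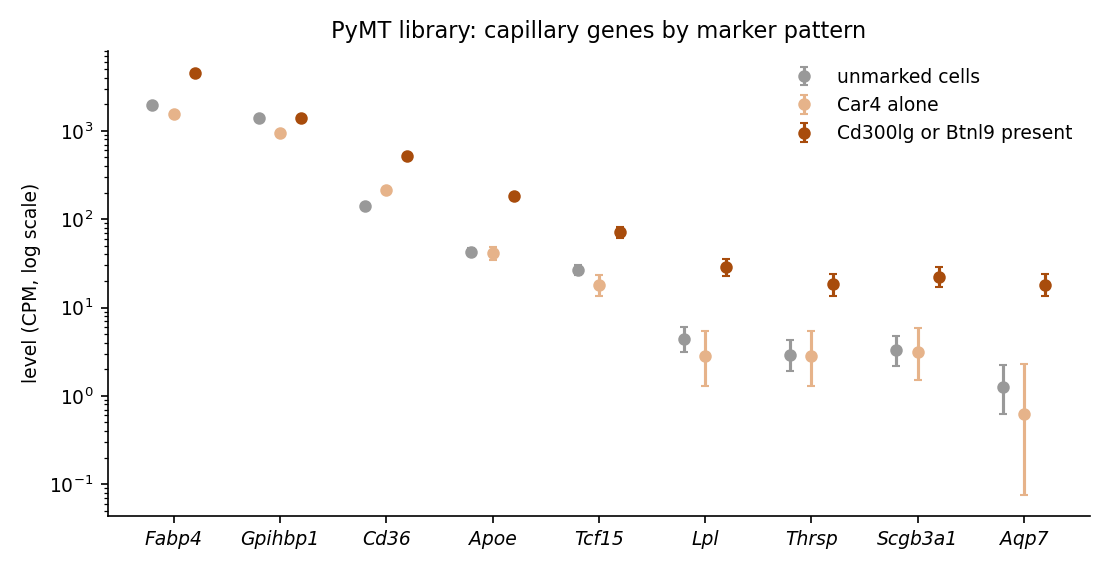
Level in the PyMT library (y axis, CPM on a log scale) of 9 genes (x axis) in unmarked cells (grey, 2596 cells), Car4 capillary cells with Car4 alone (light, 701 cells) and with Cd300lg or Btnl9 (dark, 594 cells), with exact Poisson 95% intervals. Aqp7, Lpl, Thrsp and Scgb3a1 are low in the first 2 classes and higher where Cd300lg or Btnl9 was seen.

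In KPC the same split could be read for few genes, since only 49 cells had Car4 alone (86796 UMIs). Fabp4 was at 10071 CPM with Cd300lg or Btnl9 and 10023.5 CPM with Car4 alone, and Cd36 at 562 and 588 CPM. Among 14 capillary identity genes tested, 0 were at least 2-fold higher and 0 lower, where 3.01% of 1496 genes were higher and 0.936% lower. The cells with Car4 alone carried 2892 CPM of epithelial markers against 332 CPM in the rest, led by Krt19 at 922 and 75.0 CPM. Krt8 was at 864 and 83.6 CPM. Of the 251 epithelial UMIs in cells with Car4 alone, 243 lay in 1 cell, and without it the class stood at 109 CPM.

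The list of lipid genes shares Fabp4, Cd36, Gpihbp1 and Aqp7 with the capillary list. Of 22 genes for lipid uptake and handling, 18 were tested in KPC, with 6 at least 2-fold higher and 1 lower over the other gate cells (median 0.69). In PyMT 22 were tested, with 2 higher and 1 lower (median 0.10). Lipe, the hormone-sensitive lipase, was at 83.9 and 23.7 CPM in KPC (log2 ratio 1.82) and at 13.3 and 8.33 CPM in PyMT (0.67). Mgll, which cleaves monoglycerides, was at 792 and 248 CPM in KPC (1.67) and at 148 and 111 CPM in PyMT (0.42). Scarb1, the receptor for high-density lipoprotein, had log2 ratios of 1.30 and 0.69. Angptl4, an inhibitor of lipoprotein lipase, was lower in KPC, at 13.1 and 51.2 CPM (-1.97), and at 83.9 and 102 CPM in PyMT (-0.29).

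Of the genes for VEGF receptors and ligands, 3 receptors were at least 2-fold higher in KPC. Kdr was at 1150.0 and 478 CPM (log2 ratio 1.27), Flt1, the decoy-like VEGF receptor, at 1907 and 797 CPM (1.26), and the co-receptor Nrp1 at 613 and 259 CPM (1.25). Their PyMT log2 ratios were 0.16, 0.34 and 0.21. Of the list, 3 of 8 tested genes were higher and 1 lower in KPC (median 0.23) and 0 of 8 higher and 1 lower in PyMT (median -0.20). The medians over unmarked cells were -0.02 and -0.09. The lower one in both was Pgf, placental growth factor, at 4.85 and 41.1 CPM in KPC (-3.08) and 14.5 and 58.5 CPM in PyMT (-2.02). Among angiopoietin and Tie genes, 0 of 3 in KPC and 0 of 4 in PyMT were past 2-fold (medians 0.93 and 0.14).

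Tip cell genes other than those of the rule were past 2-fold in few cases, with 2 of 26 higher and 2 lower in KPC (median -0.01, 13 of 26 above 0) and 0 higher and 2 lower in PyMT (median -0.14, 5 of 26 above 0). The 2 higher KPC genes were Ramp3, a partner of the adrenomedullin receptor (369 and 85.9 CPM, log2 ratio 2.10), and Igfbp3, an IGF-binding protein (3529 and 1154 CPM, 1.61). In PyMT they were at 14.3 and 15.0 CPM and at 1458 and 1777 CPM. Esm1, a proteoglycan of sprouting cells, was at 466 and 446 CPM in KPC and at 85.6 and 200.4 CPM in PyMT (-1.23). Matrix and basement membrane genes had 0 higher in either library, with 1 of 17 lower in KPC and 2 of 18 lower in PyMT (medians 0.08 and -0.13).

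Of 15 venule genes outside the rule, 6 were at least 2-fold lower in KPC and 0 higher (median -0.81), while 6 of the 15 lay above 0, against 3 lower and 0 higher in PyMT (median 0.02). Lrg1 was at 642 and 1101 CPM in KPC (log2 ratio -0.78) and at 1177 and 768 CPM in PyMT (0.62). Vcam1, a leukocyte adhesion receptor, was at 7.28 and 50.1 CPM in KPC (-2.78) and at 31.8 and 26.9 CPM in PyMT (0.24). Vwf, the platelet adhesion factor, was at 44.2 and 98.5 CPM in KPC and at 143 and 143 CPM in PyMT. Madcam1, the gut-type addressin, was lower in both (-2.85 and -1.19), though with 5 UMIs in PyMT. Over unmarked cells the venule medians were -0.77 in KPC and 0.37 in PyMT. The KPC median was not stable to depth, at -0.41 among cells of 2000 to 5000 UMIs (6 of 13 lower, 0 higher) and 0.01 in cells thinned to 2000 UMIs (5 of 13 lower, 0 higher). Of the artery list, 1 of 17 was higher and 4 lower in KPC (median 0.47) and 0 of 18 higher and 3 lower in PyMT (median -0.14). Efnb2, the arterial ephrin, was at 111 and 45.7 CPM in KPC and at 42.4 and 40.1 CPM in PyMT. As with the mitosis genes, the rule itself bears on venule, artery and tip lists against the whole gate.

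Signaling and barrier lists had medians from 0.17 to 0.85 in KPC and from -0.05 to 0.24 in PyMT. In KPC, flow response genes had 3 of 8 higher and 1 lower (median 0.85), among them Klf4, a shear-induced factor, at 651 and 270 CPM, and Thbd, thrombomodulin, at 459.5 and 149 CPM (log2 ratio 1.62). PyMT had 0 of 8 higher and 0 lower (median 0.24). For BMP and ALK1 signaling, 2 of 14 were higher and 1 lower in KPC (median 0.77) and 0 of 14 higher and 1 lower in PyMT (0.17), with Acvrl1, the ALK1 receptor, at 227 and 108 CPM in KPC and Smad6, its inhibitor, at 59.7 and 16.8 CPM. Notch genes had 0 of 10 higher and 1 lower in KPC (0.35) and 0 past 2-fold in PyMT (-0.05). ETS and SoxF factors had 0 of 13 past 2-fold in either library (0.51 and 0.09), nor had any of 10 junction genes (0.17 and 0.00). Caveolar genes had 1 of 11 higher in KPC (0.17) and 0 in PyMT (0.06). Ly6 and GPI-anchored genes had 2 of 8 higher and 2 lower in KPC (0.47) and 0 of 8 higher and 1 lower in PyMT (-0.05).

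Genes for the transport of solutes and water had 1 of 10 higher and 2 lower in KPC (median 0.26), the higher one being Slc6a6, the taurine transporter, at 371 and 95.6 CPM (log2 ratio 1.96), and 1 of 11 higher and 0 lower in PyMT (0.20). Coagulation and complement genes had 1 of 10 higher and 5 lower in KPC (-0.75), and 0 of 10 higher and 1 lower in PyMT (-0.15). Adhesion genes had 1 of 12 higher and 2 lower in KPC (0.33) and 0 of 13 past 2-fold in PyMT (-0.06). IGF-binding proteins had 1 of 4 higher and 0 lower in KPC (0.20) and 0 of 5 higher and 1 lower in PyMT (-0.30). The KPC IGF-binding list had 1 of 5 higher and 1 lower over unmarked cells (-0.55). MHC class I genes had 2 of 11 higher in KPC (0.63) and 0 of 12 in PyMT (0.13), with none lower, and MHC class II genes had 0 past 2-fold of 4 tested in KPC and 1 in PyMT (-0.49 and -0.08). Over unmarked cells 3 of 4 MHC class II genes were lower in KPC (-1.48). Interferon-response genes had 3 of 19 higher in KPC (0.60), led by Rsad2, an antiviral enzyme, at 136 and 45.5 CPM, and 0 of 19 in PyMT (0.09), where the median over unmarked cells was -0.29. Glycolysis and hypoxia genes had 0 higher and 1 of 17 lower in KPC (-0.47) and 0 of 16 past 2-fold in PyMT (-0.13).

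Markers of other cells were mostly low. Pan-endothelial markers were present, summing to 6237 CPM in KPC and 3601 CPM in PyMT, with 1 of 8 higher in KPC (median 0.64) and 0 of 8 past 2-fold in PyMT (0.13). Lymphatic markers summed to 175 CPM in KPC Car4 capillary cells and 347 CPM in the other gate cells, and to 131 and 384 CPM in PyMT, with 5 of 6 at least 2-fold lower in each library and Ccl21a the most abundant (105 and 79.2 CPM in Car4 capillary cells). In unmarked cells they summed to 897 and 929 CPM. Epithelial markers summed to 440 and 1077 CPM in KPC (5 of 7 lower, Krt18 the most abundant at 127 CPM, Cldn4 at 0) and to 21.5 and 46.3 CPM in PyMT (2 of 2 lower, with Cdh1, Cldn4, Krt7, Krt19 and Wfdc2 at 0). Red cell genes summed to 364 and 62.6 CPM in KPC (4 of 4 higher) and to 76.3 and 54.7 CPM in PyMT (0 of 4 past 2-fold). Over unmarked cells 3 of 4 red cell genes were higher in KPC and 4 of 4 in PyMT (76.3 and 33.8 CPM, median 1.23). Of the 390 UMIs of Hbb-bs, a beta globin and the most abundant of them in KPC, 320 lay in 1 cell. Without that cell its log2 ratio over the other gate cells went from 2.53 to 0.06. In PyMT, 233 of 235 Hbb-bs UMIs and 118 of 120 Hba-a1 UMIs lay in 3 cells. Without the richest cell, the PyMT log2 ratios over the other gate cells went from 0.42 to -1.115 for Hbb-bs and from 0.76 to -0.36 for Hba-a1.

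Immune markers summed to 83.0 and 50.6 CPM in KPC and 45.2 and 26.6 CPM in PyMT, with Lyz2 the most abundant and the 1 higher gene in both (of 2 and 3 tested), and with Cd3e and S100a8 at 0. Over unmarked cells 3 of 6 were lower and 0 higher in KPC, and 2 of 4 higher and 0 lower in PyMT (median 1.39). Few PyMT cells carried much of this RNA. The 3 richest cells held 92 of 95 Lyz2 UMIs and 21 of 23 Tyrobp UMIs, against 29 of 81 for Fcer1g. Pericyte markers summed to 232 and 473 CPM in KPC (1 of 6 higher, 2 lower, Rgs5 the most abundant) and 96.6 and 122 CPM in PyMT (0 of 6 higher, 1 lower, Abcc9 the most abundant). Fibroblast markers summed to 36.4 and 52.4 CPM in KPC and 26.6 and 47.7 CPM in PyMT, with 2 of 4 lower in each, Col3a1 the most abundant, and Pdgfra at 0 in KPC and Lum in PyMT. Adipocyte markers were all at 0 in KPC and summed to 11.9 and 5.31 CPM in PyMT (Cfd the 1 gene tested, higher, with Plin1 at 0). Acinar markers summed to 19.9 and 65.5 CPM in KPC (2 of 3 lower, Clps the most abundant) and 0.168 and 0.234 CPM in PyMT. Skeletal muscle markers summed to 5.34 and 5.57 CPM in KPC and 5.21 and 4.23 CPM in PyMT, with Mylpf the most abundant and Acta1, Myh4 and Tnnt3 at 0. The part of these cells' RNA in the results above was not tested beyond the values given without the cells that held it.

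Cells with the markers that failed an exclusion were set beside the Car4 capillary cells. In PyMT the 585 cells failing on Apln and Angpt2 alone had capillary identity genes at a sum of 7209 CPM, the 94 failing on artery genes alone 13964.5 CPM, the 77 failing on venule genes 7699 CPM and the 239 failing on proliferation genes 6744 CPM, against 9579 CPM in Car4 capillary cells and 7827 CPM in unmarked cells. The artery-gene class was thus the highest of these. Its Scgb3a1 level was 40.9 CPM and its Lpl level 60.2 CPM, above the 12.1 and 15.0 CPM of the Car4 capillary cells. In KPC only 115, 22, 14 and 38 such cells existed.

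Between the libraries, more genes were higher in the KPC Car4 capillary cells than in the PyMT ones. Of 9381 genes, 1177 were at least 2-fold higher in KPC than in PyMT Car4 capillary cells (12.5%) and 483 lower (5.15%), and 415 of the 1177 and 53 of the 483 were past 2-fold in the same direction between the other gate cells too. The capillary identity list had a median log2 ratio of 1.29, KPC over PyMT, against 0.64 in the other gate cells. For the mitosis list the medians were -1.87 and -0.07, with 16 of 20 genes at least 2-fold lower in KPC Car4 capillary cells, and for the S phase list -0.80 and 0.13, with 8 of 20 lower. Immediate early genes were higher in KPC in both classes, with medians of 2.27 and 1.497.

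Only 5 genes were at least 2-fold higher in KPC Car4 capillary cells and at least 2-fold lower in PyMT ones, over the other gate cells of their library, and 0 the other way. They were Cd24a, a GPI-anchored sialoglycoprotein (287 and 74.9 CPM in KPC, 1.85 and 8.65 CPM in PyMT), Hmcn1, a matrix protein (36.4 and 9.63 CPM, 1.01 and 2.92 CPM), Fam46a, a poly(A) polymerase (14.6 and 6.41 CPM, 0.672 and 2.81 CPM), Emp2, a tetraspan membrane protein (95.6 and 46.3 CPM, 2.35 and 6.55 CPM), and Egr3, an early growth response factor (21.4 and 8.91 CPM, 1.34 and 2.78 CPM), which was named after its values were seen. All 5 stood below 10 CPM in both PyMT classes. Egr3 aside, the intervals reached inside 2-fold in KPC for Fam46a (0.57) and Emp2 (0.82). They did so in PyMT for Fam46a (-0.67), Emp2 (-0.71) and Hmcn1 (-0.37). Under some alternatives the log2 ratio of Fam46a was as low as 0.52 in KPC and as high as -0.97 in PyMT. For Emp2 these limits were 0.80 and -0.96. Egr3 lay close to 2-fold in PyMT (1.34 and 2.78 CPM), and its intervals and its values under the alternatives are not given here.

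The ratios of 6 genes per direction differed most between the tumors. Cd24a, Hmcn1 and Fam46a were followed on the KPC side by Meis2, a homeobox factor (52.4 and 34.0 CPM in KPC, 0.84 and 3.37 CPM in PyMT), Mfap2, an elastic fibre protein (106 and 29.0 CPM in KPC, 1.68 and 2.78 CPM in PyMT), and Emp2. On the PyMT side stood Ubd, a ubiquitin-like protein (1 UMI and 16.6 CPM in KPC, 48.9 and 41.1 CPM in PyMT), Palld, an actin-binding protein (3 UMIs and 26.0 CPM in KPC, 40.0 and 44.3 CPM in PyMT), Pcdh7, a protocadherin (2 UMIs and 14.5 CPM in KPC, 4.87 and 7.16 CPM in PyMT), and Cdc45, Cenpp and Rad54l, which act in replication, at the centromere and in recombination (1 UMI each in KPC). With 1 to 3 UMIs the KPC ratios of these last 6 genes are loose, and that of Ubd had an interval of -10.40 to -2.61.

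Within each library, 8 genes varied most among Car4 capillary cells in both tumors, judged by the Fano factor (variance over mean of UMIs in cells thinned to 2000 UMIs). This used the 353 KPC and 1172 PyMT Car4 capillary cells that reached that depth, while the UMI shares below are over all of them. Over 2613 genes the median Fano factor was 1.04 in both. Spp1, osteopontin, had 50.3 in KPC and 20.2 in PyMT, and Ccl21a, a lymphatic chemokine whose reads can be shared with near-identical copies, 15.4 and 17.6. Few cells weighed heavily for Spp1, since 551 of its 1204 UMIs in KPC and 244 of 833 in PyMT lay in 1 cell, and for Ccl21a, with 83 of 216 and 86 of 471. In KPC, 53 of 124 Nts UMIs and 273 of 1111 Clu UMIs also lay in 1 cell. Fabp4 had Fano factors of 14.3 and 26.5. Nts, the peptide neurotensin, had 6.53 and 21.3, and Clu, a secreted chaperone, 12.2 and 4.81. Malat1, a nuclear RNA, had 10.95 and 9.17, Actb, the cytoskeletal actin, 6.74 and 13.2, and Igfbp3 7.14 and 5.796. The Fano factor was not adjusted for the mean, which was high for some of these genes. Malat1 averaged 25.1 UMIs per thinned cell in KPC and 14.0 in PyMT, Fabp4 20.1 and 5.70, Actb 7.41 and 11.2, and Igfbp3 6.86 and 3.09. Spp1, Ccl21a, Nts and Clu averaged under 1 UMI.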

How the data were processed

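The authors deposited UMI counts per gene and barcode for 1 library per tumor model, made with Cell Ranger 3.0 per the submitters' processing notes on mm10. Both the v2 and the v3 kit are named for these libraries, so the chemistry is not settled here. Barcodes were kept from 500 genes on if mitochondrial UMIs stayed below 10% (9591 in KPC, 11744 in PyMT). The rule, the gene lists and the population were chosen with earlier results of these data known. UMIs were summed per class and given as CPM with exact Poisson 95% intervals, and ratios with exact conditional 95% intervals, which cover counting error only. Mitochondrial genes and genes of the rule were left out of the comparisons. Named genes were the 12 with the highest and the 12 with the lowest value of the weaker library among genes tested in both (ribosomal protein genes left out), the 6 per direction with the largest difference between libraries, and the 8 with the highest Fano factor in both, beside members of the gene lists. No doublet caller was run, and an alternative left out the 8% of gate cells with the most UMIs. Ratios were tested on simulated data, and the outcome is not given here. Comparisons without cells holding lymphatic or over 1 epithelial UMIs and within 2000 to 5000 UMIs were added after seeing the data. Analyses used Python 3.11.15, numpy 2.4.6, scipy 1.17.1, pandas 2.3.3 and matplotlib 3.10.9. Some alleles and genes are not reported here.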

Additional observations from a re-analysis of the deposited data

Results flagged for a closer look

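For 5 genes the Car4 capillary cells lay at least 2-fold above the other gate cells in KPC and at least 2-fold below them in PyMT. The difference between the log2 ratios, KPC minus PyMT, was 4.17 for Cd24a, 3.45 for Hmcn1, 3.25 for Fam46a, 2.52 for Emp2 and 2.31 for Egr3. With 1 library per tumor model these differences were not tested, and tumor, organ and library cannot be told apart. In PyMT the 5 genes had between 4 and 14 UMIs in the Car4 capillary cells. Fam46a and Emp2 fell under 2-fold in each library under some alternatives. Egr3 was not followed through the alternatives.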

How the results depend on the processing

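No paired analysis was possible because there was 1 library per tumor model, and no replicate could be left out. The share of gate cells that met the rule was 11.8% in KPC and 12.5% in PyMT. It was 9.36% and 13.2% when cells needed 1000 genes and a mitochondrial share below 5%, 4.12% and 6.07% from a marker sum of 5, 20.1% and 18.5% from a sum of 2, 9.47% and 6.10% with every exclusion at 0, and 4.39% and 9.02% in barcodes thinned before the rule. Without Car4 in the sum it was 6.36% and 1.18%, without Cd300lg 5.87% and 10.6%, and without Btnl9 8.11% and 11.5%. Without lymphatic UMIs it was 12.6% and 13.2%, and in KPC cells of 2000 to 5000 UMIs 9.81%.

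The KPC counts of 304 higher and 613 lower genes were 199 and 291 in barcodes thinned before the rule, 193 and 323 within 2000 to 5000 UMIs, 198 and 322 in cells thinned after the rule, 2762 and 1113 with no filter on low counts, 139 and 195 with at least 50 expected UMIs, and 1130 and 1245 at 1.5-fold. The higher count was 185 without Car4 in the sum and 161 by the mean of CPM over cells. The PyMT count of 25 higher genes was 10 without Cd300lg in the sum, 131 over unmarked cells, 1499 with no filter, 5 with at least 50 expected UMIs and 181 at 1.5-fold. The 290 lower PyMT genes were 167 in barcodes thinned before the rule, 182 without Car4, 175 within 2000 to 5000 UMIs, 192 in thinned cells, 684 with no filter, 94 with at least 50 expected UMIs and 646 at 1.5-fold.

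Over unmarked cells the PyMT log2 ratio was above 0 for Nusap1 (0.36), Hist1h2ap (0.78), Prc1 (0.45), Hist1h1b (0.85), Ube2c (0.42) and Aurkb (0.63), and for the mitosis median (0.25), and the cause was not tested. Ccnf in PyMT was at 0.14 in barcodes thinned before the rule, likewise without a tested cause. Ratios under 2-fold in PyMT also crossed 0 for Cdc45 (0.75), Rad54l (0.99), Cenpp (0.48) and Palld (0.46) over unmarked cells, for Lrrc3b (-0.18) in barcodes thinned before the rule, and for Ubd (-0.44) without Car4 in the sum. Counted over genes, libraries and alternatives, 731 values of named genes stayed within the counting interval of the reported ratio, 213 lay outside it and 7 of the reported 2-fold ratios changed sign. Depth limits the KPC values, since 495 of 848 Car4 capillary cells there had under 2000 UMIs.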

Other observations

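The count tables also list the transgenes TdTomato and CreERT2, which had 0 UMIs in both libraries.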
